A study of Drosophila melanogaster with 2 samples.

Results

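The regions described here are 2625 promoter candidates that lie just below the reproducible peak list of a chromatin immunoprecipitation with sequencing (ChIP-seq) experiment on the zinc finger protein BuGZ. The reproducible list is 2413 peaks long. The members are the regions that follow in the pooled candidate list when it is sorted by signal value, from the rank after 2413 down to rank 9000 of 30000. Each overlaps no reproducible peak and has a transcription start site (TSS) of the annotation 250 bp or less from its summit. These ranks, called the member ranks below, held 6587 candidates, of which 2693 had a promoter summit and 68 of these were left out for overlap with a reproducible peak. The study has 1 group of 2 replicates: whole embryos of both sexes, aged 0 to 16 h, from a stable transgenic Drosophila melanogaster line in which BuGZ (CG17912) carries green fluorescent protein at its C terminus. No second condition and no untagged line was analysed here, and whole embryos mix all tissues and stages. In its description each sample is an input control, but the antibody label, and the records of which alignments each list was made from, describe an immunoprecipitate set against another library. The libraries were taken as immunoprecipitates, and the conflict was not settled. The number of reads is unknown here, and the lists are all that was analysed, so the 95% Wilson intervals below cover counting error over regions or genes only.

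The members were selected on the pooled signal value, so their signal values and ranks are a description and support nothing. Their signal values ran between 50.3 and 101.2 with a median of 68.5, against 101.3 to 1538.3 and a median of 134.4 for the 1357 reproducible peaks with a promoter summit. The 3383 promoter candidates ranked below 9000 had signal values of 25.8 to 50.3. These 2 sets, and the 3838 candidates of the member ranks away from promoters (distal candidates), serve as the comparison sets. The pooled list was made from the reads of both replicates, so the replicate ranks given below are not independent of the choice either.

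BuGZ is known, mainly from work on human cells and frog egg extracts, as a partner of the spindle checkpoint protein Bub3 that loads it onto kinetochores and takes part in assembling the spindle. Many promoters of Drosophila genes that are active in most cells have no TATA box and carry instead short core-promoter elements. These include the DNA replication-related element (DRE), bound by Dref, Motif 1, bound by M1BP, the E-box of core promoters, Motif 6 and Motif 7. Many such genes lie head to head in divergent pairs that share a promoter. A ranked candidate list holds weak sites and background together, and the position of the reproducible limit is set by how well the replicates' ranks match.

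Of the members, 1178 (44.9%, 95% interval 43.0 to 46.8) held at least 1 of those 5 core-promoter elements within 100 bp of the summit. The stretches shown are, for each element, the highest-ranked printable members that hold it in sequence outside annotated exons. They come from RefSeq's Release 6 genome (dm6) and read 5′ to 3′ on the strand of the nearest TSS. Capitals mark only the element for which the promoter is shown, on either strand. The first pair shows the DRE, with the letters TATCGATA.
CG9795 (chr3R:4319540-4319682, + strand): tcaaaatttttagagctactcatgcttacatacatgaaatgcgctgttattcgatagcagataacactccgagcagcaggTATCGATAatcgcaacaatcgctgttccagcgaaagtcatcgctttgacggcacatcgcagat
EMC4 (chr3L:22868244-22868379, - strand): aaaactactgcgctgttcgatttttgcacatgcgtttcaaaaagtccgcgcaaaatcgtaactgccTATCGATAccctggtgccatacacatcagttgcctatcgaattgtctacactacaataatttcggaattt
The next pair shows the Motif 1 core, with the letters GGTCACAC. The stretch of unc-119 lies in introns of its neighbours CG1677 and lncRNA:CR44357, and the stretch of strat holds a DRE beside its Motif 1 core.
strat (chr2L:8320203-8320327, + strand): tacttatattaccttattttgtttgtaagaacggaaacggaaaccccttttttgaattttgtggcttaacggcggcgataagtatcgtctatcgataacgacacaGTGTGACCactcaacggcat
unc-119 (chrX:7291299-7291462, - strand): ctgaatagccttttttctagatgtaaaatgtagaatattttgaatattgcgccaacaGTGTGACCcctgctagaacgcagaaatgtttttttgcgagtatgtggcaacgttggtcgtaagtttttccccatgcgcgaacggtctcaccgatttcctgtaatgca
Another pair shows the E-box, with the letters CAGCTG. The first of them is at the promoter of an antisense RNA within an intron of Prps, and the second holds Motif 7 as well.
asRNA:CR45804 (chr3L:9693647-9693820, + strand): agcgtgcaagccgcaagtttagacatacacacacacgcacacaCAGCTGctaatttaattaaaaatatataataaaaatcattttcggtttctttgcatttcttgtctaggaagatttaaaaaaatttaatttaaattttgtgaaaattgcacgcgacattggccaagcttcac
Ctl2 (chr3R:29123207-29123369, + strand): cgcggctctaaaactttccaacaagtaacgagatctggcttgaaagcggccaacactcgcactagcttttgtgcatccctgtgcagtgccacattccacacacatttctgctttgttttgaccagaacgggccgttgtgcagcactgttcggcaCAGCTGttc
Motif 6, with the letters GGTATTT, is shown at RFeSP and at the shared promoter of MED4 and asRNA:CR43470, and both stretches also hold Motif 7.
RFeSP (chr2L:1614167-1614367, - strand): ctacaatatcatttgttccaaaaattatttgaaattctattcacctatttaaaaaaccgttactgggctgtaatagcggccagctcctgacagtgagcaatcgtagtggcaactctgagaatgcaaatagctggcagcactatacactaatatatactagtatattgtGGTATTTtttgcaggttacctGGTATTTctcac
MED4 and asRNA:CR43470 (chr3L:7250528-7250639, + strand): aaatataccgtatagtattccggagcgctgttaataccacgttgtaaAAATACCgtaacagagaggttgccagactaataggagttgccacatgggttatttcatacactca
Motif 7, with the letters CAGCNCT in which N is any base, is shown at Akt and at the promoter shared by CG3038 and G9a.
Akt (chr3R:16099077-16099227, + strand): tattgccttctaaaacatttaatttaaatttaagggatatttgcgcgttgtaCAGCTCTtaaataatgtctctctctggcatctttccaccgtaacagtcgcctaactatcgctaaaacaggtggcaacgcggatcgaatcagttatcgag
CG3038 and G9a (chrX:245857-245977, - strand): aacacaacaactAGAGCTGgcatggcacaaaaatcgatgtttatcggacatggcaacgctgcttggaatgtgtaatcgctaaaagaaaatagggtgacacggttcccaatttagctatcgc
All of these stretches apart from those of unc-119 and asRNA:CR45804 are intergenic. The summits of the 10 promoters lie at -25 to -107 bp from the nearest TSS, where negative positions are upstream.

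The highest-ranked member, directly after the reproducible list, was the promoter region of CG9795, with a signal value of 101.2. It ranked 3000 in the list of replicate 1 and 2211 in that of replicate 2. EMC4, a subunit of the endoplasmic reticulum membrane complex, stood at rank 2434 and ranked 2047 and 4849 in the 2 replicates. Akt, the kinase of the insulin pathway, stood at rank 2422 and ranked 3898 and 6078. The region shared by CG3038 and G9a, a histone H3 lysine 9 methyltransferase, stood at rank 2425 and ranked 1381 and 5397. None of these 4 ranked in the top 2413 of both replicates. RFeSP, the Rieske iron-sulphur subunit of respiratory complex III, stood at rank 2484 and ranked 3287 and 1503. The 25 highest members also included the promoters of Cox17, a copper chaperone for cytochrome c oxidase, of Dph2, needed for diphthamide synthesis, of Atg7 and Sec6, which share 1 promoter and act in autophagy and exocytosis, and of arr, the Wingless co-receptor. They further included mip40 of the Myb-MuvB complex, the transcription factors ken, jumu and sima, the O-GlcNAc transferase sxc and the chaperonin subunit CCT1.

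The limits that define the set run through closely spaced signal values. The highest member had a signal value of 101.2, and the 5 reproducible promoter peaks just above it, at lncRNA:Vinr, GABPI, Osbp, CG9393 with Vps45, and pdgy, all had 101.3. The lowest members, at CG4629, CdGAPr, Naprt, CG3566 and Ugt302C1, had signal values of 50.3 or 50.4 at ranks 8972 to 8987. The next promoter candidates below them, at CG10011, Tsp42Eo, Usp2, CG13344 with CG16935, and spel1, had 50.2 or 50.3 at ranks up to 9016. At the distance limit, the region of Pcf11 lay 250 bp from the TSS and was kept, and that of Ibf1 lay 1 bp farther and was not. The authors' -log10 q-value was at its ceiling of 3.75 for 197 members (7.5%), down to rank 2827, as it was for every reproducible peak.

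With summits matched within 200 bp, most members were found again in the list of each replicate, but at uneven ranks. With summits matched within 50 bp, those found in both lists were no longer the majority. Of the 2625 members, 2143 (81.6%, 80.1 to 83.1) had a summit within 200 bp in both replicate lists, against a background of 41.5% for all 30000 pooled candidates. The share was 97.6% for reproducible promoter peaks, 29.0% for promoter candidates ranked below 9000 and 82.0% for distal candidates of the members' ranks. By the stricter measure of a rank from 1 to 9000 in both replicate lists, 1121 members (42.7%, 40.8 to 44.6) qualified, against a background of 16.4%. For this measure the distal candidates of the same ranks stood at 31.6% (30.2 to 33.1), the reproducible promoter peaks at 94.9% and the lower-ranked promoter candidates at 2.10%. The distal candidates share only the range of pooled ranks: promoter summits become rarer down that range, and the median signal value was 68.5 for members and 62.4 for distal candidates. The second measure moves with the pooled rank, so the difference in it was not separated from rank. The median rank of the members was 5350 in replicate 1 and 5413 in replicate 2. A replicate region could be matched to more than 1 member, so the matches are not all separate. For example, 2 members at Hsp26, at pooled ranks 2873 and 6754, were both matched to rank 781 of replicate 2.

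The members divide by replicate as follows. The list of replicate 1 alone held 176 members, that of replicate 2 alone held 296, and 10 were in neither. The top 2413 of replicate 1 held 270 members and the top 2413 of replicate 2 held 313, and 13 were in both, against 772 of the 1357 reproducible promoter peaks. The members lie below every reproducible promoter peak in pooled signal value, and the pooled list was made from both replicates. A small number in both is thus set by the choice. The promoter of pAbp, the poly(A)-binding protein, ranked 831 in replicate 1 and 29639 in replicate 2. The promoter of Ran, the GTPase of nuclear transport, ranked 11851 in replicate 1 and 777 in replicate 2. The promoter shared by cnn, a centrosome protein, and Golgin97 ranked 908 in replicate 1 and was not listed in replicate 2. These 3 were chosen after their values were seen.

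**Figure D1:**
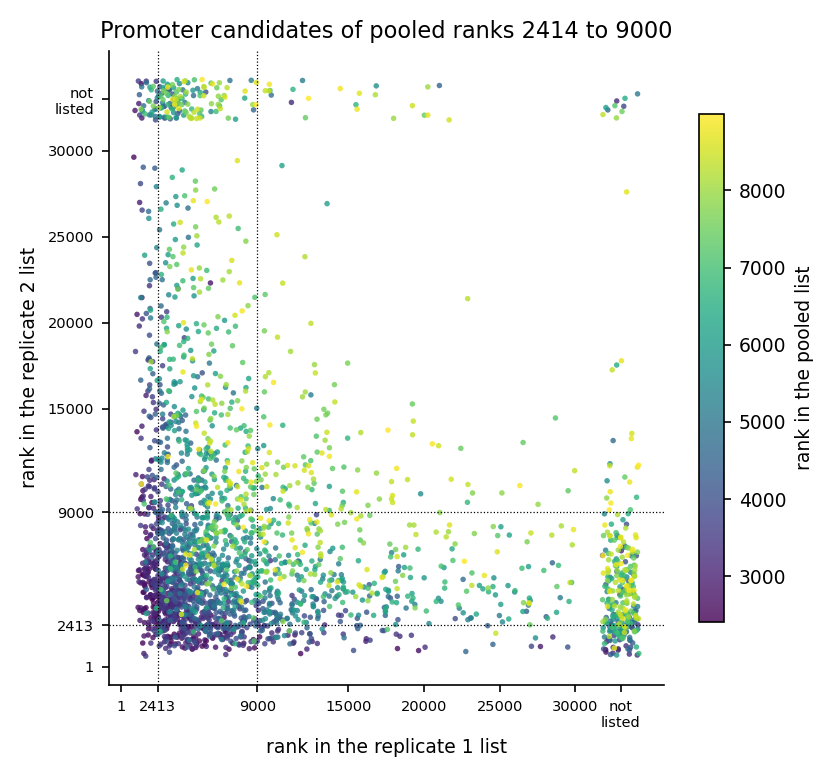
Rank of each of the 2625 members in the list of replicate 1 (x axis) and of replicate 2 (y axis), coloured by its rank in the pooled list; dotted lines mark ranks 2413 and 9000, and members missing from a list are spread in the band marked not listed. 13 members lie in the lower left corner, with a rank up to 2413 in both, and 1121 lie within ranks 1 to 9000 of both.

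The members with the best rank in their worse replicate came close to the reproducible list. The promoter of rno, which encodes a nuclear protein with a PHD finger, stood at pooled rank 2481 and ranked 1417 and 1389 in replicates 1 and 2. The promoter of Hsp26, a small heat shock protein, stood at 2873 and ranked 1493 and 781. The promoter of Sec61beta, a subunit of the protein translocation channel, stood at 2829 and ranked 1503 and 1798. Jra, the fly Jun, stood at 3366 and ranked 1954 and 1385. The list also holds CG5953, the promoter shared by phr6-4 and CG2608, that shared by Hsc70-5 and CG8531, Hrb98DE and stc, whose worse ranks ran from 1616 to 2225. All of these thus have both replicate ranks inside the first 2413, and none of them overlaps a reproducible peak.

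Along the ranks, the properties of the regions were followed in bins. The share of summits upstream of the TSS was 65.8% (62.4 to 69.1) in the first member bin, against 74.5% (72.1 to 76.8) in reproducible promoter peaks. A promoter summit and the replicate lists bear on the choice itself, and their shares are given as a description. Promoter summits made up 56.2% of reproducible peaks. Below that list only promoter summits whose region overlaps no reproducible peak were counted, against all candidates of the bin, so the shares are not quite alike. In 4 bins of the member ranks, ending at ranks 4000, 5500, 7000 and 9000, they made up 49.4%, 44.9%, 37.5% and 30.2% of candidates. In the bins below, ending at ranks 15000 and 30000, they made up 23.6% and 13.1%. Among the promoter regions of each bin, the share found in both replicate lists was 97.6% for reproducible peaks, then 94.1%, 84.1%, 79.2% and 65.0% over the 4 member bins, and 46.6% and 16.3% below them. The share with any of the 5 core-promoter elements was 48.5% in reproducible promoter peaks, then 47.8%, 43.5%, 45.6% and 41.8% in the member bins, and 36.9% and 32.8% below. Over all 23697 annotated promoter positions, taken within 100 bp of the TSS, the share was 32.3%.

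**Figure D2:**
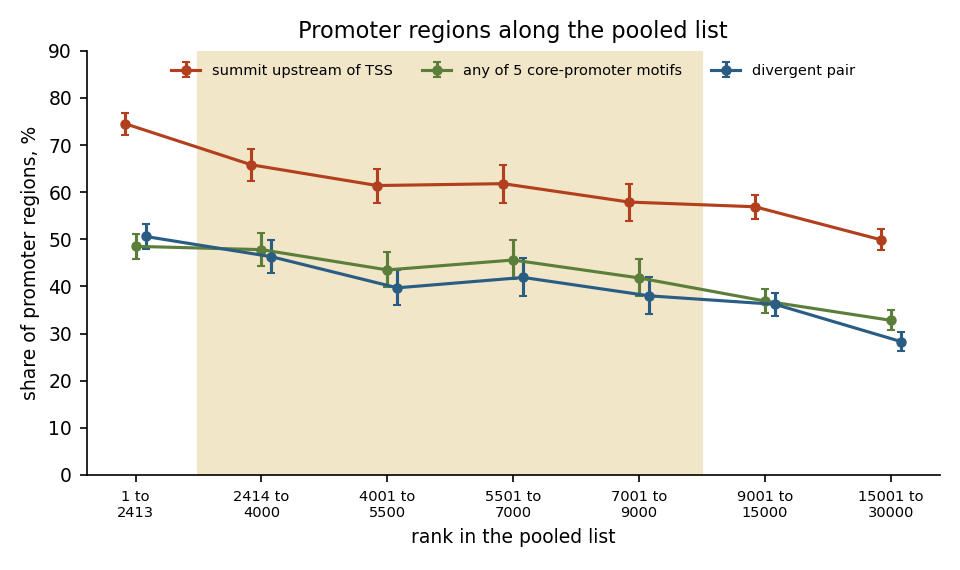
Share of promoter regions (y axis, %) with the summit upstream of the nearest TSS, with any of 5 core-promoter elements and at a divergent pair, in bins of pooled rank (x axis); bars are 95% Wilson intervals and the shaded bins hold the members. The 4 member bins run between the reproducible bin and the 2 lower bins in all 3 measures, from 65.8% to 57.9% for upstream summits.

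Member summits lay nearer to the TSS, and less often upstream of it, than those of reproducible peaks. The summit was upstream of the nearest TSS in 1627 members (62.0%, 60.1 to 63.8), against 74.5% (72.1 to 76.8) of reproducible promoter peaks and 52.8% (51.1 to 54.5) of lower-ranked promoter candidates. The median position was -22 bp for members, with quartiles of -75 and 24 bp. It was -43 bp for reproducible promoter peaks, with quartiles of -103 and 1 bp, and -7 bp for lower-ranked candidates, with quartiles of -84 and 73 bp. A summit within 50 bp of the TSS was found in 49.6% of members, 45.2% of reproducible promoter peaks and 36.2% of lower-ranked candidates. The share was highest in members, but all 3 sets were cut at 250 bp from a TSS. No interval or replicate value was computed for this share.

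**Figure D3:**
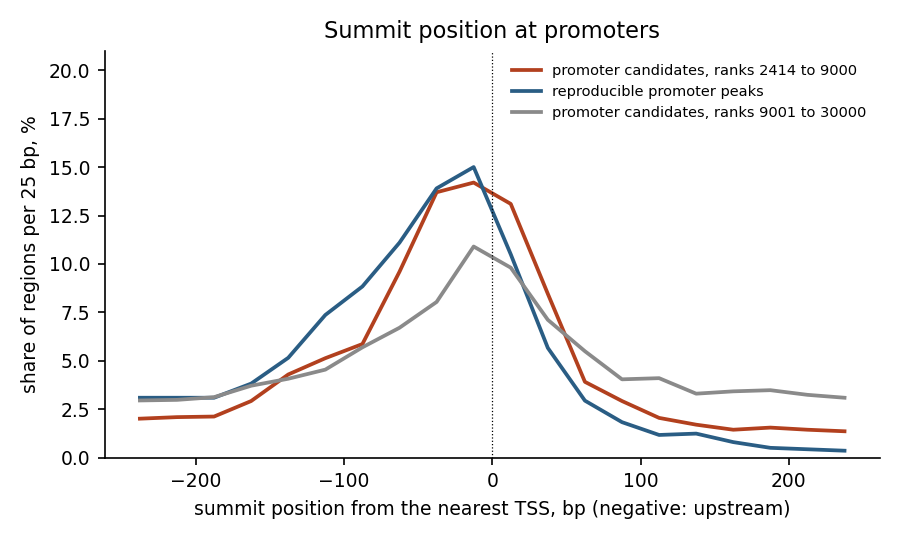
Share of regions per 25 bp (y axis, %) by summit position from the nearest TSS (x axis, bp, negative upstream) for the members, the reproducible promoter peaks and the promoter candidates ranked below 9000. The members and the reproducible peaks both crest just upstream of the TSS, and the reproducible peaks hold more summits farther upstream, with medians of -22 bp and -43 bp.

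Divergent pairs, defined as TSSs on opposite strands that point away from each other within 1000 bp, accounted for 1096 members (41.8%, 39.9 to 43.6). They accounted for 50.6% (48.0 to 53.3) of reproducible promoter peaks and 31.6% (30.0 to 33.2) of lower-ranked promoter candidates. To set these differences against the spread between replicates, the same 3 rank classes were taken from each replicate's own list. There the divergent share was 39.1% and 41.6% for the member ranks in replicates 1 and 2, against 50.5% and 48.6% for the top 2413 ranks and 30.0% and 34.1% for ranks below 9000. The upstream share was 63.5% and 56.8%, against 76.8% and 66.6% for the higher ranks and 52.6% and 51.6% for the lower ones. For both measures the replicates' values of the 3 classes did not overlap. The classes can be paired only within the 2 replicates, and no test was run on them.

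Divergent pairs held 47.3% (44.4 to 50.1) of members with any of the 5 elements, against 37.2% (34.8 to 39.8) of members with none. For members with a DRE the share was 53.7% (47.2 to 60.1), with the Motif 1 core 53.6% (47.2 to 59.8) and with Motif 6 52.6% (45.9 to 59.2). For the E-box it was 46.3% (41.6 to 51.2) and for Motif 7 46.0% (41.3 to 50.7), intervals that include the 41.8% of all members. The TATA box, with the letters TATAAA, is none of the 5, and members with it stood at 47.9% (44.0 to 51.8). Members with the repeat GAGAG, bound by the GAGA factor, stood at 29.5% (26.2 to 33.0). A rank from 1 to 9000 in both replicate lists was held by 50.2% (43.9 to 56.5) of Motif 1 members. For DRE members it was 36.1% (30.2 to 42.6), and for all members 42.7%. Motif 7 members stood at 49.0% (44.3 to 53.7), E-box members at 47.1% (42.3 to 51.9) and Motif 6 members at 41.2% (34.8 to 48.0). This measure moves with the pooled rank, whose median was 4767 for Motif 1 members, 4713 for Motif 7 members and 5169 for DRE members. The differences were not separated from rank. A member at a divergent pair need not have the promoters of 2 genes near its summit. At a divergent pair lay 1096 members, and 526 of all members had 2 or more genes at the promoter. The part of a second promoter in these shares was not tested.

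In the pooled list, the DRE, the Motif 1 core and Motif 6 were about as frequent in members as in reproducible promoter peaks. The E-box and Motif 7 were less frequent in members. A motif is a match of the spelled letters on either strand within 100 bp of the summit, which is a description and not a binding site. The DRE was found in 227 members (8.65%, 7.63 to 9.78), in 9.29% of reproducible promoter peaks, in 5.23% of lower-ranked promoter candidates and in 5.43% of all promoters. The shorter core CGATA, bound by BEAF-32 and contained in every DRE, was found in 42.0% of members, 43.8% of reproducible promoter peaks, 33.7% of lower-ranked candidates and 34.6% of all promoters. The Motif 1 core was found in 237 members (9.03%, 7.99 to 10.2), in 8.40% of reproducible promoter peaks, in 5.50% of lower-ranked candidates and in 4.74% of all promoters. These 3 shares in members were above all promoters and within the counting intervals of the reproducible peaks. Among distal candidates of the same ranks the DRE was at 0.495% and the Motif 1 core at 0.677%.

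The other 3 elements were likewise more frequent in members than in lower-ranked candidates. Motif 7 was found in 435 members (16.6%, 15.2 to 18.0), in 19.1% of reproducible promoter peaks, in 11.9% of lower-ranked candidates and in 11.2% of all promoters. The E-box was found in 410 members (15.6%, 14.3 to 17.1), in 18.0%, 13.6% and 12.3% of those sets. Motif 6 was found in 211 members (8.04%, 7.06 to 9.14), in 8.25%, 5.70% and 5.96%. The shares of Motif 7 and the E-box lay just under the intervals of the reproducible peaks, which were 17.1 to 21.3 and 16.0 to 20.1. So did the 44.9% of members with any of the 5, against 48.5% (45.8 to 51.1). In the replicates' own lists any of the 5 elements was found in 43.8% and 41.4% of promoter regions of the member ranks, against 51.1% and 43.9% for the top 2413 ranks and 35.3% and 33.5% for ranks below 9000. Within each replicate the member ranks lay between the other classes. The upper value of the member ranks, 43.8%, nearly meets the lower value of the top ranks, 43.9%, which comes from the other replicate. For single elements, the DRE was at 7.47% and 7.15% in the member ranks, against 9.67% and 8.71% in the top 2413 ranks. The E-box was at 16.0% and 15.2% against 18.9% and 15.9%, and Motif 7 at 16.4% and 13.8% against 20.8% and 16.8%. Motif 6 was at 7.32% and 7.77% against 8.37% and 7.97%. The Motif 1 core was at 8.69% and 8.21% against 9.06% and 7.90%. Here the DRE, the E-box, Motif 6 and Motif 7 were below the top ranks in each replicate, and the Motif 1 core in replicate 1 only.

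Most members with an element had a single kind. One kind was held by 875 members (33.3%), 2 kinds by 265 (10.1%), 3 kinds by 37 (1.41%) and 4 kinds by 1, and 1447 (55.1%) had none. The DRE and the Motif 1 core occurred together in 25 members, and the E-box and Motif 7 in 84. The elements differed in where they lay. The median centre was at -4.50 bp from the summit for the DRE, 7.5 bp for the Motif 1 core, -3.00 bp for Motif 7 and -22.0 bp for Motif 6. For the E-box it was 0.500 bp in members and 26.0 bp in reproducible promoter peaks. In reproducible promoter peaks the E-box crested at 20 to 40 bp downstream of the summit, in 3.32% of regions, against 1.87% of members and 1.60% of lower-ranked candidates in the same 20 bp.

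**Figure D4:**
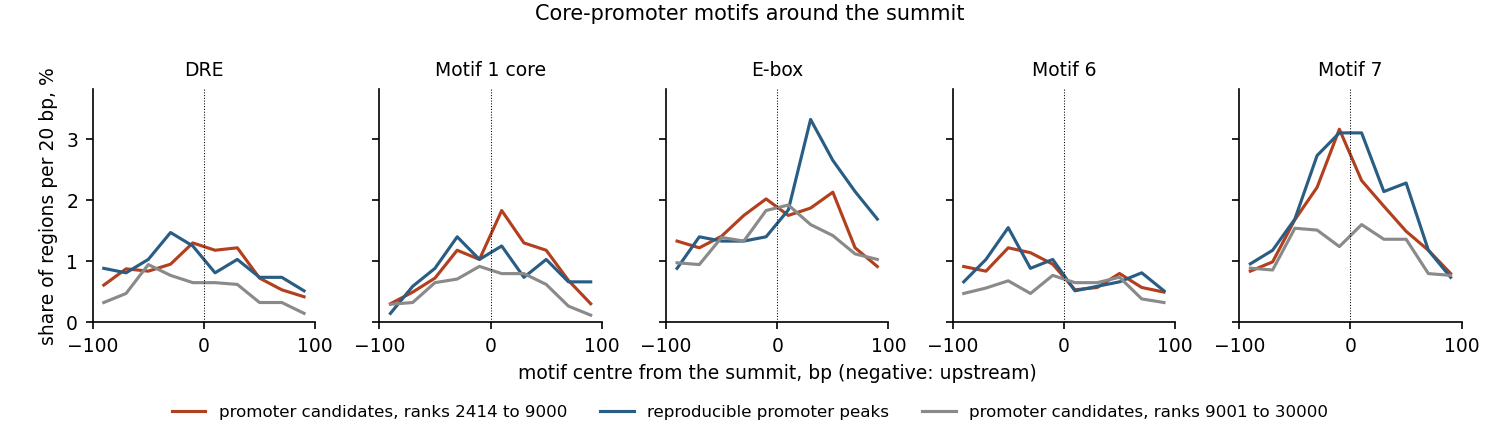
Share of regions (y axis, %) with the centre of each of the 5 core-promoter elements in 20 bp steps from the summit (x axis, bp, negative upstream on the strand of the nearest TSS), for the members, the reproducible promoter peaks and the promoter candidates ranked below 9000. Motif 7 crests at the summit in members, in 3.16% of regions at -20 to 0 bp, and the E-box has its crest downstream of the summit in reproducible peaks, at 3.32%.

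Other promoter elements differed from each other in their order over the sets. The TATA box was found in 23.4% (21.8 to 25) of members, in 26.9% of reproducible promoter peaks, in 21.8% of lower-ranked candidates and in 26.2% of all promoters. Among the promoter regions of the ranked list it was, like the E-box, most frequent in reproducible peaks and least in the lower-ranked candidates. Unlike the E-box, it was less frequent in members than in all promoters. The initiator core TCAGT was found in 37.2% of members, in 32.1% of reproducible promoter peaks, in 37.8% of lower-ranked candidates and in 42.2% of all promoters. The repeat GAGAG was found in 26.7% of members, in 26.1%, 27.7% and 24.3% of those sets, and in 30.9% of distal candidates. The repeat ACACACAC was found in 5.90% of members, in 5.01%, 5.82% and 3.64%, and in 9.56% of distal candidates, so that members were above all promoters and below distal candidates. The Zelda site CAGGTAG stood at 1.03% in members and in all promoters alike. The letters GCCAT of the Pho site were at 30.7% against 30.9% in all promoters, and a run of 7 A was at 17.9% against 17.8%.

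The rarer motifs stayed at a few percent of members. The AP-1 site TGACTCA was at 2.36% in members, 1.99% in reproducible promoter peaks and 1.65% in all promoters. The NRF-1 letters GCGCATG were at 2.02%, 1.84% and 1.64%, and the letters CTCTTTCT around the polypyrimidine initiator of ribosomal protein genes at 1.75%, 1.77% and 1.16%. The CTCF core AGGGGGC was at 0.838% in members, 1.4% in reproducible promoter peaks and 0.734% in all promoters. The ETS letters CCGGAAG were at 0.610%, 1.33% and 0.992%, and the cyclic AMP response element TGACGTCA at 0.152%, 0.737% and 0.266%. The last 2 shares rest on 16 and 4 members.

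Words of 6 bases within 50 bp of the summit were counted without a motif list. Of the 10 named, 4 overlap the DRE or its flank and 1 lies within the Motif 1 core. None lies within the letters of the other 3 elements. A flank was allowed for the DRE only. Of the 10 words with the largest excess in members over lower-ranked promoter candidates, the first was TATCGA, in 16.2% of members, 15.0% of reproducible promoter peaks and 10.6% of lower-ranked candidates. CGATAG followed with 13.6%, 13.3% and 8.04%, and ATCGAT was in 13.1% and then ACTATC in 8.91% of members. All 4 overlap the DRE or its flank. ACACTG was in 13.1% of members, 15.3% of reproducible promoter peaks and 7.92% of lower-ranked candidates, and AACACT in 9.45%, 12.5% and 6.15%. GTCACA, part of the Motif 1 core, was in 10.1%, 9.65% and 7.01%. The other 3 were made of A and T alone, with AATAAT in 13.0%, AAATTA in 14.7% and AAAATA in 22.9% of members. Median GC content within 100 bp of the summit was 41.8% in members, 40.8% in reproducible promoter peaks, 43.8% in lower-ranked candidates and 41.8% in all promoters. In the replicates' own lists it was 43.8% and 41.3% for the member ranks, against 41.8% and 40.3% for the top 2413 ranks and 45.3% and 42.3% for ranks below 9000. Within each replicate it was lowest in the top ranks and highest in the lower ranks, but the 43.8% of the member ranks in replicate 1 exceeded the 42.3% of the lower ranks in replicate 2.

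The members lay at the promoters of 2967 genes, which is 16.2% of 18277 annotated genes. Of these genes, 2818 had no reproducible peak and 149 had one at another TSS or beside the member. Protein-coding genes accounted for 2719 of them, or 19.5% of 13968. With the 1723 genes (9.43%) that had a reproducible peak, 4541 genes (24.8%) had 1 or the other. Since 526 members had 2 or more genes at their promoter, a count of genes is not a count of independent regions. In each replicate's own list, the member ranks gave 2307 and 2551 genes, or 12.6% and 14.0% of all genes. Of protein-coding genes they gave 2099 and 2303, or 15.0% and 16.5%. In the gene groups below, the share of a group's genes with a member is read against 16.2% of all genes or 19.5% of protein-coding genes, with no test.

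**Figure D5:**
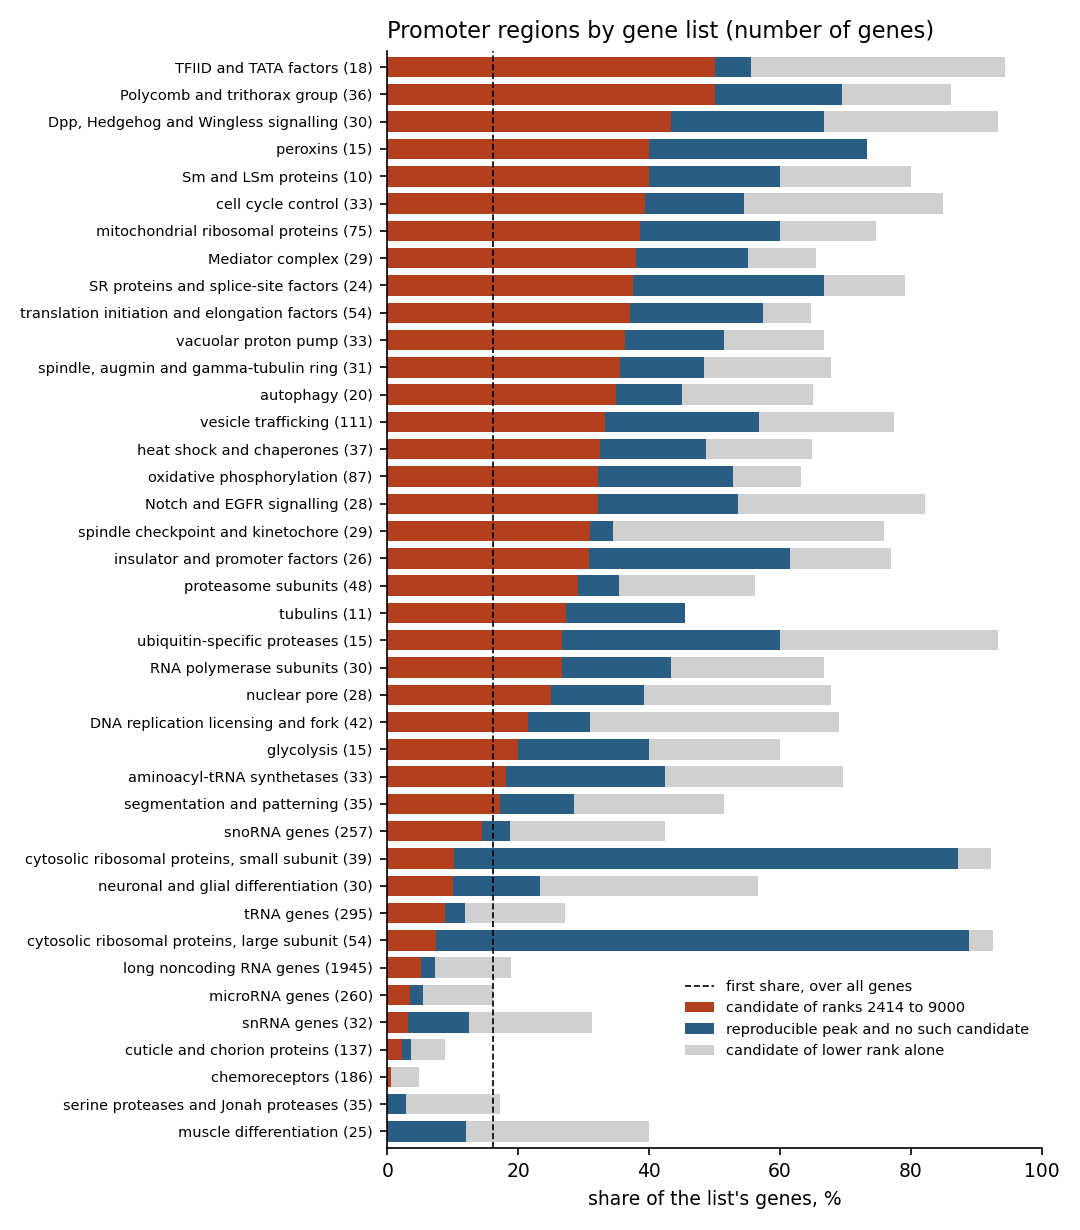
For each of 40 gene groups of 10 or more genes, the share of genes (x axis, %) with a member, with a reproducible peak and no member, and with a lower-ranked promoter candidate alone; the dashed line marks the 16.2% of all genes with a member. Polycomb and trithorax group genes reach 50% and the cytosolic ribosomal proteins of the large subunit 7.41%.

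The highest shares of the 41 groups, 50% each, were those of the Polycomb and trithorax group and of the TFIID group. Polycomb and trithorax group genes encode chromatin regulators that keep developmental genes silent or active. Of 36, 18 (50%, 34.5 to 65.5) had a member and 7 had a reproducible peak. In the replicates' own lists the shares were 36.1% and 50%. The highest were Sce, the ubiquitin ligase of Polycomb repressive complex 1, at rank 2720 with replicate ranks 4402 and 2212, and Su(z)2, a relative of another subunit of that complex, at rank 2745 with 1688 and 4060. Utx, a histone H3 lysine 27 demethylase, stood at rank 2817 with 4177 and 3593, and ph-d, a Polyhomeotic subunit, at rank 2841 with 2093 and 3162. The zinc finger gene jing had 3 member regions, the highest at rank 2797 with 1619 and 7828. The Hox genes, classical targets of these complexes, had members at Abd-B, Scr and lab, at ranks 5877 to 7371, and 0 of 8 had a reproducible peak.

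The TFIID group holds the TATA-binding protein, its associated factors and TATA factors outside the complex such as Trf and Trf2, which both have a member. It had 9 of 18 genes (50%) with a member and 1 with a reproducible peak, and the replicates' own shares were 44.4% and 38.9%. Taf5 stood at rank 2641 with replicate ranks 8805 and 1110, on a promoter shared with the peroxin gene Pex6. Taf2 stood at rank 3882 with 2795 and 2435, and Taf4 at rank 3951 with 4883 and 1388. The Mediator complex, which links activators to RNA polymerase II, had 11 of 29 genes (37.9%) with a member and 5 with a reproducible peak. Its highest members were MED27 at rank 2433 with 2136 and 4024, MED26 at rank 2471 with 3498 and 1905, and MED4 at rank 2639 with 2135 and 3721. In the replicates' own lists the Mediator shares were 13.8% and 20.7%, against 15.0% and 16.5% of protein-coding genes, so the Mediator share rested on the pooled ranks. RNA polymerase subunits had 8 of 30 (26.7%), and 10% and 26.7% in the replicates' own lists, so that in replicate 1 they stood under the 15.0% of protein-coding genes. Splice-site factors had 9 of 24 (37.5%) with 7 at a reproducible peak, and 25% and 29.2%. Sm and LSm proteins, the cores of spliceosomal particles, had 4 of 10 (40%), and 20% and 50%.

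Of 30 genes of the Dpp, Hedgehog and Wingless pathways, which pattern embryonic segments and appendages, 13 (43.3%) had a member and 7 a reproducible peak, and the replicates' own shares were 46.7% and 40%. The receptors led the group. The Wingless co-receptor arr stood at rank 2450 with replicate ranks 2552 and 5345, and smo, the Hedgehog signal transducer, at rank 2670 with 4454 and 2912. The Dpp receptor tkv stood at rank 2897 with 2765 and 2102, and the Hedgehog receptor ptc at rank 3090 with 4123 and 1896. The Wingless pathway gene dsh stood at rank 3702 with 5203 and 5640. Notch and EGFR pathway genes had 9 of 28 (32.1%), and 32.1% and 25% in the replicates' own lists, among them Su(H), the Notch transcription factor, at rank 2765 with 1399 and 11068.

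Most cytosolic ribosomal protein genes had a reproducible peak, and since members overlap none, few of these genes were left to hold one. Of 54 genes of the large subunit 4 (7.41%) had a member and 45 a reproducible peak, and of 39 genes of the small subunit 4 (10.3%) had a member and 30 a reproducible peak. Of the 9 genes of each subunit with no reproducible peak, 3 of the large and 4 of the small had a member. The 4 of the large subunit were RpLP2 at rank 2974 with replicate ranks 2305 and 4887, RpL21 at 3548 with 2677 and 10624, RpL6 at 4866 with 14723 and 1695, and RpL7A at 7794, which also has a reproducible peak. The 4 of the small subunit were RpS24, RpS26, RpS30 and RpS3, at ranks 3092, 4078, 5719 and 6990.

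Mitochondrial ribosomal proteins had 29 of 75 genes (38.7%, 28.5 to 50) at a member and 16 at a reproducible peak. The highest were mRpL18 at rank 2684 with replicate ranks 2307 and 4714, mRpL50 at 3048 with 4585 and 3942, and bonsai, a small subunit protein, at 3105 with 1533 and 5685. In the replicates' own lists the shares were 17.3% and 32.0%, so in replicate 1 alone the group stood near the 15.0% of protein-coding genes. Translation initiation, elongation and release factors had 20 of 54 (37.0%) at a member and 14 at a reproducible peak, led by eIF2D at rank 2696 with 6998 and 1786 and eRF1 at 2832 with 2212 and 3037, and the replicates' own shares were 22.2% and 31.5%. Aminoacyl-tRNA synthetases had 6 of 33 (18.2%), about the share of protein-coding genes. Oxidative phosphorylation genes had 28 of 87 (32.2%) at a member, with RFeSP and ND-15 of complexes III and I the highest, and 18 at a reproducible peak. The replicates' own shares of this group were 18.4% and 24.1%.

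Genes of cell division had members more often than reproducible peaks, as all genes did (16.2% and 9.43%). Cell cycle control genes had 13 of 33 (39.4%) at a member and 5 at a reproducible peak. The 5 highest of them by signal value stood higher in replicate 2 than in replicate 1. The mitotic kinase polo, at rank 3216, ranked 6974 in replicate 1 and 2427 in replicate 2. The kinase aurB, at 3448, ranked 11282 and 4155. Cdk1, at 3694, ranked 14538 and 2994, on a promoter shared with mRpS7. The anaphase-promoting complex gene mr, at 4266, ranked 16383 and 4780, and the cyclin-dependent kinase inhibitor dap, at 4386, ranked 13014 and 2962. In the replicates' own lists the share of the group was 24.2% in replicate 1 and 51.5% in replicate 2, so the replicates differed more than the pooled share differed from its background.

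The spindle checkpoint and kinetochore genes, the setting in which BuGZ is best known, had 9 of 29 (31.0%, 17.3 to 49.2) at a member and 1 at a reproducible peak. BuGZ itself, described below, is among the 9. A further 12 had a lower-ranked promoter candidate alone. The replicates' own shares were 20.7% and 24.1%, against 15.0% and 16.5% of protein-coding genes. Det, the fly survivin, stood at rank 3436 with replicate ranks 2968 and 3720, on a promoter shared with m-cup. The centromere cohesion protein gene mei-S332 had 2 member regions, the higher at rank 3849 with 4201 and 6021, on a promoter shared with Vrp1. The checkpoint target fzy, the fly Cdc20, stood at 4602 with 7449 and 3077, on a promoter shared with cni. The kinesin gene cana stood at 5031, was not listed in replicate 1 and ranked 3932 in replicate 2. Spindle, augmin and gamma-tubulin ring genes had 11 of 31 (35.5%), led by Grip84 at rank 2657 with 2176 and 6007, and the replicates' own shares were 25.8% and 22.6%.

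The promoter of BuGZ itself held 2 regions of the pooled list. The higher of them was a member, at rank 4529 with a signal value of 73.8. It ranked 28486 in replicate 1 and 6053 in replicate 2, with the summit 214 bp downstream of the TSS at a divergent pair. It was thus close to the end of the list of replicate 1. The line carries a tagged copy of the gene, and the part of that copy in the value was not tested. The promoter of Bub3, the partner of BuGZ, was no member, with a pooled rank of 14358 and replicate ranks of 22326 and 25795.

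In protein turnover and membrane traffic, vesicle trafficking, the vacuolar proton pump, the peroxins and the chaperones had intervals above the 19.5% of protein-coding genes, and the proteasome and autophagy genes had intervals that include it. Vesicle trafficking genes had 37 of 111 (33.3%) at a member and 28 at a reproducible peak, led by Sec6 of the exocyst at rank 2430 and Vps28 of the endosomal sorting machinery at 2494. The replicates' own shares were 17.1% and 27.9%, the first near the 15.0% of protein-coding genes. The vacuolar proton pump, which acidifies endosomes, had 12 of 33 (36.4%) at a member and 6 at a reproducible peak, and 30.3% in each replicate's own list. Its genes Vha100-2 and Vha26 stood at ranks 2590 and 2646. The proteasome had 14 of 48 (29.2%, 18.2 to 43.2) at a member and 3 at a reproducible peak, and 20.8% in each replicate's own list. Its highest members were the regulatory subunit genes Rpn3 at 2678, Rpn13 at 2721, Rpn9 at 2738 and Rpt4 at 2757, and the promoters of these 4 are each shared with another gene. Autophagy genes had 7 of 20 (35.0%), with Atg8a, the ubiquitin-like protein of the autophagosome, at rank 2521 with replicate ranks 2290 and 1894. The replicates' own shares of autophagy genes were 15.0%, equal to protein-coding genes, and 25%. Peroxins, which import proteins into peroxisomes, had 6 of 15 (40%, 19.8 to 64.3), with 33.3% and 26.7% in the replicates' own lists. Heat shock and chaperone genes had 12 of 37 (32.4%, 19.6 to 48.5), with 21.6% and 27.0%, led by CCT1 at 2446, the Hsp40 gene Droj2 at 2479 and Hsp68 at 2559.

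In other groups the interval of the share included the 19.5% of protein-coding genes or lay below it. DNA replication genes had 9 of 42 (21.4%, 11.7 to 35.9) at a member, with 16 at a lower-ranked promoter candidate alone, and nuclear pore genes 7 of 28 (25%, 12.7 to 43.4). Insulator and promoter factors had 8 of 26 (30.8%, 16.5 to 50) at a member and 10 at a reproducible peak, and 19.2% and 11.5% in the replicates' own lists. Among the members were CTCF at rank 3962 and Chro and BEAF-32, which both have a reproducible peak too. Segmentation and patterning genes had 6 of 35 (17.1%), among them dl, the fly NF-kappaB protein of the dorsal-ventral axis, at rank 2900, and en at 4303. Neuronal and glial differentiation genes had 3 of 30 (10%), namely insc, pros and cpo. Muscle differentiation genes had 0 of 25 in the pooled list, whereas each replicate's own list had 3 of 25 (12%).

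Gene families expressed in few tissues or after embryogenesis had few members or none. Cuticle and chorion protein genes had 3 of 137 (2.19%), of which 1 is Cpr, a cytochrome P450 reductase gene that the name pattern of the group caught. Chemoreceptor genes had 1 of 186, which is Gr39a, and Jonah and other serine proteases had 0 of 35. Of the genes of short RNAs, snoRNA genes had 37 of 257 (14.4%) at a member and 11 at a reproducible peak, and tRNA genes 26 of 295 (8.81%) and 9. The tRNA share was 2.71% in the list of replicate 1 and 13.2% in that of replicate 2. Long noncoding RNA genes had 100 of 1945 (5.14%) at a member, microRNA genes 9 of 260 and snRNA genes 1 of 32. Of all 41 groups, 29 stood above the 16.2% of all genes and 12 below. In 14 groups the lower bound of the 95% interval was above the 19.5% of protein-coding genes, and 30 groups had more genes at members than at reproducible peaks, of which there are fewer in all.

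Members were spread over the chromosome arms much as TSSs are, with 427 on X, 486 on 2L, 601 on 2R, 496 on 3L and 588 on 3R. The small chromosome 4 had 27 members (1.03%, against 0.772% of TSS positions), and these differed between the replicates. Of the 27, 20 (74.1%) were not listed in replicate 1 and 4 (14.8%) were not listed in replicate 2. On the 5 large arms 10.3% to 11.5% of members were not listed in replicate 1 and 5.95% to 8.44% not in replicate 2. The whole list of replicate 1 had 91 regions on chromosome 4 and that of replicate 2 had 583. The chromosome 4 promoter of MED26, at rank 2471 with replicate ranks 3498 and 1905, and that of PlexB, a semaphorin receptor, at 3157 with 2159 and 3101, were in both lists. The promoters of Crk, an adaptor of receptor kinase signalling, at rank 3167, and of lgs, a Wingless pathway cofactor, at 5032, were in neither. These chromosome 4 genes apart from MED26 were chosen after their values were seen. Of the 10 members found in neither replicate list, 3 were on chromosome 4, at Crk, lgs and CG46466.

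Members found in 1 replicate list alone differed in composition. The 176 found in the list of replicate 1 alone had a median GC content of 42.3% and 67.0% (59.8 to 73.6) upstream summits. The 296 found in that of replicate 2 alone had 38.3% and 55.1% (49.4 to 60.6). The DRE was in 6.82% of the first and 12.2% of the second, and Motif 7 in 24.4% of the first and 12.2% of the second. Most members, 2143 of 2625, were in both lists and in neither of these subsets. The part of read depth or library composition in this was not tested. A reproducible summit lay within 1000 bp of 192 members and within 500 bp of 20, and the median distance was 9865 bp. Members are 336 bp wide and overlap no reproducible peak, so the low count within 500 bp is partly set by the rule. The distances were not compared with those of another set. Members had neighbours among themselves within 500 bp in 183 cases, and 204 genes had 2 or more member regions.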

How the data were processed

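Both replicates were used as libraries of 1 group, numbered as in the labels; the lists give no read depth. Per the deposited read-me texts, the authors made 1 candidate list a replicate and 1 from both pooled, each from dm6 alignments set against a control, and cut the reproducible list at an irreproducible discovery rate. Its value and the caller are not given in the sources used. The deposited signal value is a score of unstated scale that differs between lists, and was used to sort each list alone. The -log10 q-value, also deposited, was at a ceiling for the strongest regions and was only described. The deposited summit offset gave each summit.

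Coordinates are dm6, 1-based. Genes and 23694 TSS positions on 7 chromosomes are those of Ensembl for this assembly, and sequence is that of RefSeq's Release 6. Overlap meant 1 bp or more, replicate summits were matched within 200 bp (best rank), divergent TSSs within 1000 bp, motifs within 100 bp of the summit on both strands, and words of 6 bases within 50 bp. Intervals are 95% Wilson. Python 3.11.15, numpy 2.4.6, pandas 2.3.3 and matplotlib 3.10.9 were used, and the counting steps were tested on simulated data.

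The members, 41 gene lists, 19 motifs and comparison sets were chosen with earlier results of these data known. Of listed symbols, 7 were updated by hand and 11 were not found. Named were the 25 highest members, the 10 with the best worse replicate rank (1 is not reported here), those next to the limits, up to 5 genes a list by signal value, BuGZ and Bub3, every motif and the 10 words of largest difference; other names are marked. Alternatives covered the promoter window, rank limit, match distance, motif window, divergent distance, coding TSSs and each replicate's own list. With 1 group no test between conditions was made, and nothing in the labels beyond the replicate numbers says how the embryo collections were separated.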

Additional observations from a re-analysis of the deposited data

How the results depend on the processing

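Of 77 main values recomputed under an alternative, 53 moved by less than their interval or factor and 24 moved. A lower rank limit of 6000 gave 1652 member regions at 1967 genes, with 89.0% found in both replicate lists, 60.1% ranked 1 to 9000 in both and 64.3% upstream summits. A limit of 12000 gave 75.5% and 34.1% for the replicate measures. Matching summits within 50 bp lowered these to 45.0% and 22.9%, and matching any overlap gave 85.9% and 46.0%. The divergent share was 44.9% with a promoter window of 100 bp, 38.9% with 500 bp, 39.6% with protein-coding TSSs alone and 28.8% with pairs within 500 bp. Any of the 5 core-promoter elements was found in 51.7% of members with the window of 100 bp and 41.9% with 500 bp, and in 29.7% and 55.0% with the motif search within 50 and 150 bp. Median GC content within 50 bp was 44.6%. With 1 replicate left out, by the same rule on the other's own list, there were 2036 to 2279 regions at 2307 to 2551 genes. The upstream share was then 56.8% to 63.5%, the divergent share 39.1% to 41.6%, the motif share 41.4% to 43.8%, the median GC content 41.3% to 43.8%, and 26 to 30 gene lists stood above all genes. The 2 measures of both replicate lists could not be given there. Of 190 values of single motifs 58 moved, and of 323 of gene lists 58 moved. No paired analysis was possible between conditions because the series holds 1 group; rank classes were set side by side within each replicate. Unknown read depth limits every replicate rank, and a region missing from a list may only have ranked below its end.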
